A study of Rattus norvegicus with 12 samples.

Results

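The interleukins and their receptors were followed through a rat model of bone healing, by counting the RNA-seq reads of every gene whose symbol begins with Il and a digit. Of 17379 gene features in the deposited tables, 71 carried such a symbol. By textbook role, 32 of them encode ligands, 32 encode receptor or accessory chains, and 7 encode antagonists, decoy receptors or binding proteins. All 12 libraries came from male SAS Fischer rats that weighed 200 to 225 g, with 3 libraries in each of 4 groups. The normal group held fracture hematomas, the clotted tissue that fills a break, taken from femoral defects of 0.5 mm, which heal normally in this model. The delayed group held hematomas from 1.5 mm defects, which heal late, and the nonunion group held hematomas from 5.0 mm defects, which do not heal. The reference, called preOP, was the piece of intact femur cut out when the 5.0 mm defect was made, with no treatment. The labels give neither the time at which hematomas were collected nor the animal behind each library, so p-values measure the spread between these libraries. A library is named here by its group and replicate number, as in delayed 1.

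Interleukins are secreted messengers by which blood, immune and connective tissue cells instruct one another. The IL-1 family, which includes IL-1, IL-18, IL-33 and IL-36, signals through chains of the IL-1 receptor family and NF-kappaB. Most other interleukins signal through JAK kinases and STAT transcription factors. Soluble antagonists and decoy receptors bind a receptor or a ligand without passing on a signal. In a fracture, IL-1 and IL-6 belong to the early inflammatory phase, IL-6 and IL-11 act on bone-forming and bone-resorbing cells through the shared chain encoded by Il6st, and IL-33 is stored in the nuclei of connective tissue and vessel cells and released on injury.

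The libraries held 16808993 to 24325162 estimated reads each, and the 71 genes together took from 10846 (nonunion 2) to 88335 (delayed 1) of them. The files of the 3 normal libraries have another form than the other 9. Between 16.8% and 18.1% of all their read numbers, zeros included, are written with a decimal point, against 100% elsewhere. How the normal libraries were quantified and their group therefore cannot be told apart in any comparison with them. Library nonunion 2 held the most estimated reads, 24325162, but had the fewest effective reads after scaling, 6487492. Its CPM values (counts scaled to 1000000 effective reads) are therefore raised the most relative to its reads. In that library 3 reads equal 0.462 CPM, against 0.115 to 0.185 in the other 11 libraries. Its adipocyte markers summed to 14459 CPM against 226 to 1689 in all the others, and the skeletal muscle markers of delayed 2 summed to 39120 against 170 to 10123. Of 12 bone cell markers, Col1a1 and Pdpn were lower in preOP than in all 9 hematomas, while Bglap stood at 190.0 to 259 CPM in preOP against 68.8 to 84.7 in normal and 0.579 to 1.75 in delayed and nonunion hematomas. Ibsp, Alpl, Dlx5, Dmp1 and Mepe were also higher in every preOP library than in any delayed or nonunion one, and higher still in every normal one. Red cell markers were the higher ones in preOP (129357 to 230692 against 1095 to 23314). Each comparison between groups was made with edgeR's quasi-likelihood test over all genes, and a gene is said to be called when its Benjamini-Hochberg adjusted p was below 0.05.

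The promoters of 4 ligands are shown because the results turn on these genes: Il6 and Il11, which rose in hematomas, Il33, which also differed between delayed and normal, and Il12a, which fell. Each line gives the 250 bases before the RefSeq start site of assembly GRCr8, 5′ to 3′ on the gene's strand, with motif matches in capitals. In Il6 (chr4:5894576-5894825, minus strand) the capitals mark a CRE core, TGACGTCA, 162 to 155 bases before the start, and an NF-kappaB motif, 68 to 59 bases before it. In Il11 (chr1:78098372-78098621, plus strand) they mark an AP-1 motif, TGAGTCA, 142 to 136 bases before the start. In Il12a (chr2:155275484-155275733, plus strand) they mark the letters TATAAA, 47 to 42 bases before the start. The Il33 window (chr1:237115323-237115572, plus strand) held no match to the 5 motifs searched.
Il6: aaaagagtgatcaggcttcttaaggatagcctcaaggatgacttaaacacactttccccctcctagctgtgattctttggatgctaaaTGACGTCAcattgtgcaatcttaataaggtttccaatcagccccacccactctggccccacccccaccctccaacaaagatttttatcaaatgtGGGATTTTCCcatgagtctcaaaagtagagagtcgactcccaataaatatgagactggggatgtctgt
Il11: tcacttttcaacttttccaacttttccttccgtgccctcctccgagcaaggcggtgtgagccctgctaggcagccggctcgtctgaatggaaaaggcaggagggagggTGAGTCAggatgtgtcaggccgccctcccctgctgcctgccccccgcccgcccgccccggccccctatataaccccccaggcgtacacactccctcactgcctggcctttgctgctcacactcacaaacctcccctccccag
Il33: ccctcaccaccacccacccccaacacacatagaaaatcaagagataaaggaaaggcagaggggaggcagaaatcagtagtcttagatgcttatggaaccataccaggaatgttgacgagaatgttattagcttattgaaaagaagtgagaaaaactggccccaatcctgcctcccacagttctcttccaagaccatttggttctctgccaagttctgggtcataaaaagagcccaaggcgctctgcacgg
Il12a: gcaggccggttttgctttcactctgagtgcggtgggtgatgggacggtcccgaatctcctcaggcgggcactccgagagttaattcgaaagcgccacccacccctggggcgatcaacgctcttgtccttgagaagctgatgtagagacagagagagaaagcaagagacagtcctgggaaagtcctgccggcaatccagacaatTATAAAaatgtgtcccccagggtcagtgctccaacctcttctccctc

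A promoter entry existed for 55 of the 71 genes, and the table as a whole holds 27457 promoters of this length. The NF-kappaB motif stood on either strand in 5 of the 55 (Il6, Il1rap, Il12rb2, Il22ra1 and Il36a) and in 6.41% of all promoters. The AP-1 motif, TGANTCA on either strand, stood in 5 (Il11, Il15, Il16, Il1a and Il9) and in 6.36% of all. The CRE core, TGACGTNA on either strand, stood in Il6 and Il21r and in 3.02% of all, and the STAT motif, TTCNNNGAA on either strand, in 5 and in 7.52% of all. TATAAA on the gene's strand stood in 7 of the 55, Il1a, Il1b, Il2 and Il2ra among them, and in 8.38% of all promoters. A match here is a description of letters, and no binding was measured.

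Per length of transcript, Il18 had the highest mean of the ligands in normal hematomas, and Il33 had it in delayed and nonunion. In RPKM (CPM divided by the transcript's effective length in kilobases), Il18, an IL-1 family cytokine, stood at 121 ± 33.5 in normal hematomas (mean ± SD, n = 3), 79.5 ± 34.2 in delayed, 64.9 ± 30.5 in nonunion and 16.1 ± 4.11 in preOP. Il33 stood at 36.5 ± 6.34, 109 ± 15.4, 87.1 ± 37.3 and 10.7 ± 2.48 RPKM in the same order. Il1b, the main secreted form of IL-1, had means of 22.6, 89.7, 17.9 and 21.2 RPKM, with an SD above the mean in the delayed group. Among receptor chains, Il17ra, which binds IL-17A and IL-17F, had the highest level in preOP at 145 ± 7.12 RPKM, while Il4r, the IL-4 and IL-13 receptor chain, led in normal hematomas at 53.7 ± 17.2. Il1rn, the secreted IL-1 receptor antagonist, was the highest of the antagonists in every hematoma group, at 94.5 ± 17.96, 218 ± 145 and 151 ± 164 RPKM, and stood at 28.8 ± 5.48 in preOP.

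Delayed hematomas held more Il33 and more Il36rn than normal ones, and no Il17b reads. Of the 44 interleukin genes that passed the filter on low counts among the 9 hematoma libraries, 2 were higher and 1 was lower, which is 6.82% called against 7.13% of all 12474 genes tested (2.68% higher and 4.45% lower). The share of interleukin genes called was thus near that of all genes. The median log2 fold change was 0.74 over the 44 genes and 0.02 over all genes tested.

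Il33 had the most reads of the 3 called genes. It stood at 65.8, 93.1 and 90.4 CPM in the 3 normal libraries, at 239.9, 207 and 274 in the delayed and at 107, 277 and 199.6 in the nonunion ones. Every delayed and nonunion library lay above every normal library, and the delayed and nonunion ranges overlapped. The log2 fold change of delayed over normal was 1.52 (SE 0.36, adjusted p = 0.0387), and that of nonunion over normal was 1.16 (SE 0.36, adjusted p = 0.115), which was not called. In bulk tissue such as this, fewer cells of a type and less RNA per cell cannot be told apart. The fibroblast markers, of which 8 of 9 were found and none was at 0, summed to 10664 to 21373 CPM in normal, 6551 to 15471 in delayed and 6842 to 14593 in nonunion hematomas, with Col3a1 the largest term. Among the 8, Pdgfra was higher in every delayed and nonunion library (166 to 312 CPM) than in every normal one (103 to 158), as Il33 was. Lum, Postn and Cthrc1 were lower there, and the part of fibroblasts in the Il33 difference was not tested.

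Il36rn encodes the antagonist of the IL-36 receptor. Its levels were 0.150, 0.122 and 0.225 CPM in normal, 1.38, 1.39 and 1.94 in delayed, 0.910, 4.78 and 0.951 in nonunion and 2.47, 2.27 and 4.01 in preOP libraries. The 3 normal libraries were the 3 lowest of all 12, at 2 to 5 reads each. The log2 fold change over normal was 3.16 (SE 0.79, adjusted p = 0.0469) for delayed and 3.52 (SE 0.80, adjusted p = 0.0561) for nonunion, the second not called. Il1rl2, the receptor chain that IL-36 binds, stood at 1.10, 0.429 and 1.803 CPM in normal and 5.14, 3.66 and 7.46 in delayed libraries, without overlap, with a log2 fold change of 2.24 (SE 0.72, adjusted p = 0.0926).

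Il17b, which encodes a ligand of the receptor chain Il17rb, had 50 reads over the normal libraries and none over the delayed ones. Per library it stood at 0.351, 1.41 and 0.901 CPM in normal and 0.316, 0.308 and 1.32 in nonunion hematomas and at 0 in all delayed and preOP libraries. Against a limit of 3 reads per library, delayed hematomas were at least 6.81-fold lower than normal (adjusted p = 0.0293). The chondrocyte markers, of which 7 of 9 were found and none was at 0 throughout a group, summed to 312 to 619 CPM in the normal libraries. They summed to 31.5 to 35.2 CPM in the delayed libraries, 7.71 to 55.3 CPM in the nonunion ones and 92.7 to 119 CPM in femur, and the part of cartilage in this difference was not tested.

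All 3 of these calls ended in some of the other analyses. None of the 3 held when normal 1, normal 2, normal 3, delayed 1 or delayed 3 was left out, each of which gave 0 interleukin genes called. Without delayed 2, 5 were called, and without delayed 2 and nonunion 2 together, the 2 libraries rich in other tissue, 14 were called, 12 higher and 2 lower, among 46 genes tested. The 14 included Il33, Il36rn and Il17b, and among the rest were Il23a (22.0, 0.825 and 2.38 CPM in delayed against 0.201, 1.29 and 0.315 in normal), a subunit of IL-23, and Il10ra (52.7, 17.9 and 32.9 against 14.5, 4.16 and 15.3), the ligand-binding chain of the IL-10 receptor.

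Several IL-1 family genes were highest in delayed 1, and none of them was called between hematomas in the fit of all 9 libraries. Il1b stood at 238, 10.6 and 41.0 CPM in the delayed libraries, 15.3, 47.2 and 15.1 in the normal and 42.3, 1.54 and 14.2 in the nonunion ones. Il1r2, a decoy receptor for IL-1, stood at 181, 5.26 and 33.7 CPM in delayed, 26.2, 52.0 and 20.1 in normal and 75.0, 1.54 and 4.10 in nonunion. Il1a, the other IL-1 ligand, stood at 7.98, 0.361 and 1.69 CPM in delayed and 0.251, 0.367 and 0.225 in normal libraries. Delayed 1 was the highest of the 9 hematomas for all 3 genes, and for Il1b and Il1r2 the other libraries of the 3 groups overlapped. S100a8, a neutrophil marker, stood at 282, 17.7 and 81.8 CPM in delayed, 3359, 589 and 616 in normal and 175, 15.4 and 15.8 in nonunion libraries. It was thus highest in delayed 1 among the delayed libraries but higher still in all 3 normal ones, and the part of neutrophils in these levels was not tested.

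**Figure D1:**
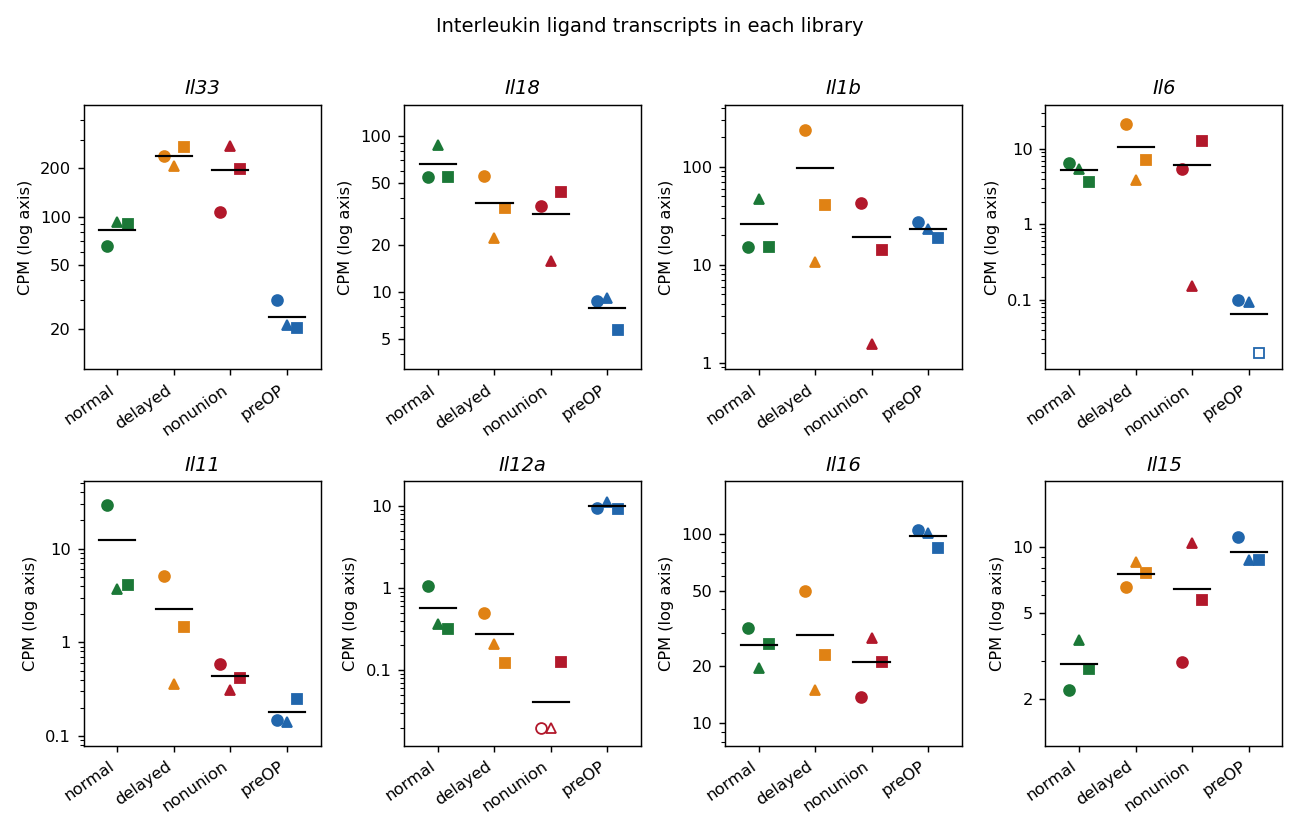
Ligand transcripts in each of the 12 libraries, in CPM on log axes. Circles, triangles and squares are replicates 1, 2 and 3, black lines are group means, and open symbols drawn at 0.02 are libraries with 0 reads. Il33 was at 66 to 93 CPM in normal and at 207 CPM or more in delayed libraries. The group means of Il6 and Il11 were lowest in preOP, and nonunion 2 held 1 and 2 reads of them. Il12a and Il16 were highest in preOP, and the mean of Il1b in the delayed group rests on delayed 1.

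No interleukin gene was called between nonunion and normal hematomas, where 2.37% of all genes tested were called (0.89% higher and 1.48% lower). With edgeR, 7 of the 44 had an unadjusted p below 0.05, as did 2558 of all 12474 genes tested. DESeq2's Wald test called 6 of 66 interleukin genes and 1272 of all 15173 genes. Il11, an IL-6 family cytokine that acts on bone and stroma, stood at 28.9, 3.67 and 4.10 CPM in normal, 5.07, 0.361 and 1.45 in delayed and 0.593, 0.308 and 0.414 in nonunion hematomas. The 3 nonunion libraries lay below the 3 normal ones, and normal 1 stood well above the other normal libraries. The log2 fold change of nonunion over normal was -4.81 (SE 1.21, adjusted p = 0.0718). Il17re, a receptor chain for IL-17C, stood at 1.10, 2.08 and 0.991 CPM in normal and 2.77, 28.8 and 4.63 in nonunion libraries. Its log2 fold change was 3.03 (SE 0.86, adjusted p = 0.0971). Nonunion 2 was the highest library in CPM, but in reads the gap was smaller, at 187 against 112 in nonunion 3.

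Between nonunion and delayed hematomas no interleukin gene was called either, and neither was any other gene: 0% of those tested, higher or lower. Of the 44, 6 had an unadjusted p below 0.05 with edgeR, as did 881 of all 12474 genes tested. DESeq2 called 2 of 66 interleukin genes, Il17b and Il34, and 181 of all 15173 genes. Il34, a ligand of the macrophage growth factor receptor Csf1r, stood at 0.384, 2.58 and 0.807 CPM in delayed and 3.68, 47.8 and 9.76 in nonunion libraries, without overlap, and nonunion 2 held the top value. The median log2 fold change was 0.17 for nonunion over normal and -0.51 for nonunion over delayed, against -0.03 and -0.05 over all genes tested.

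Against intact femur the interleukin genes changed widely and in both directions. Of the 48 that passed the filter among all 12 libraries, 28 were called in normal hematomas (15 higher and 13 lower), 25 in delayed (16 higher and 9 lower) and 23 in nonunion (13 higher and 10 lower). Those are 58.3%, 52.1% and 47.9% of the 48. Over all 12846 genes tested, 42.6% were called in normal (20.5% higher and 22.1% lower), 28.2% in delayed (12.6% higher and 15.6% lower) and 28.4% in nonunion (13.5% higher and 14.9% lower). The median log2 fold changes of the 48 genes were -0.16, 0.37 and -0.14, against -0.09, -0.03 and -0.002 over all genes. The 3 comparisons share the same 3 preOP libraries, so their values are given side by side and are not independent of one another.

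**Figure D2:**
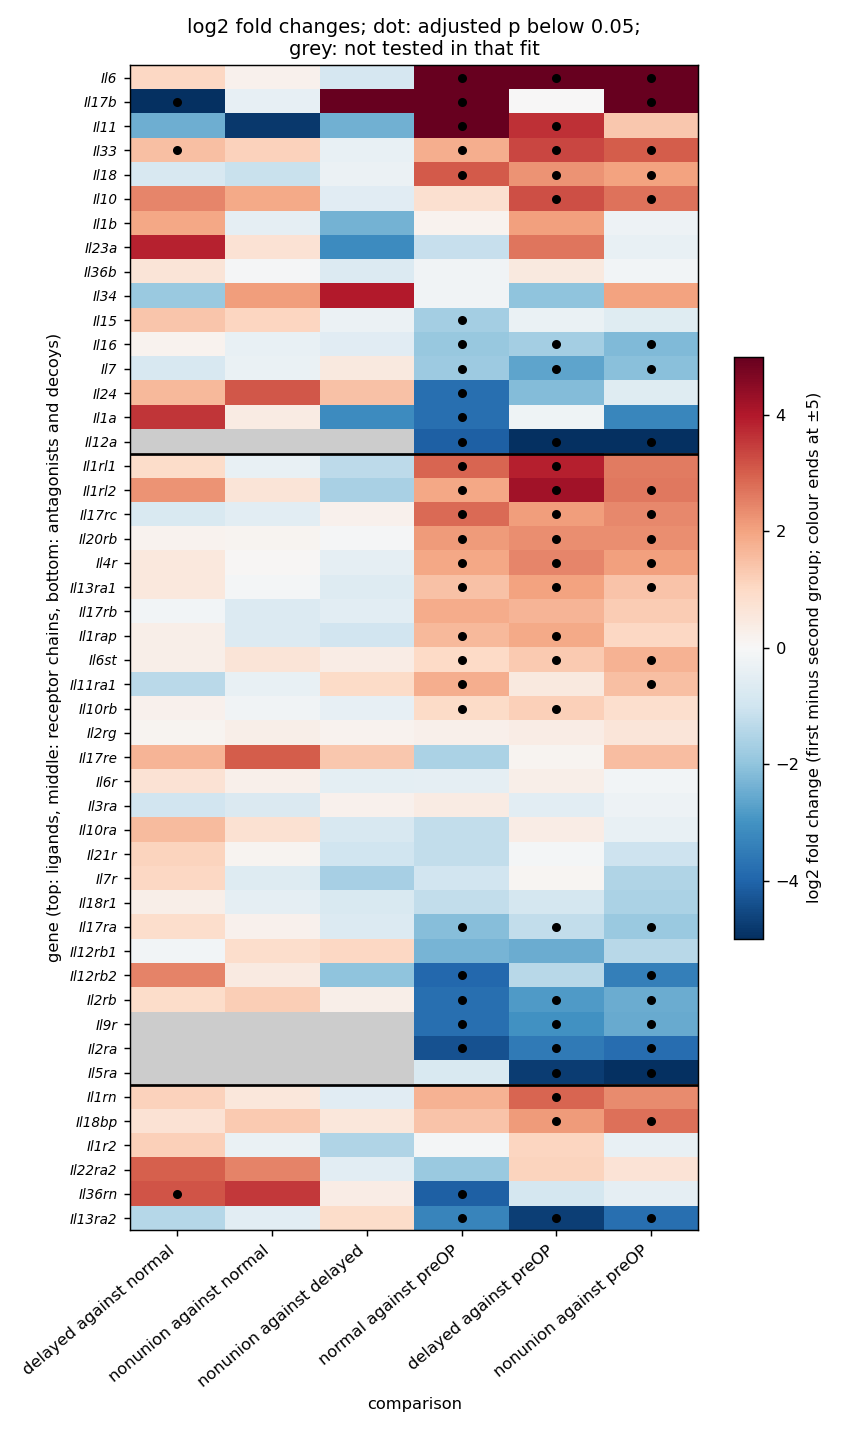
Fitted log2 fold changes of the 48 interleukin genes tested, by comparison (columns) and gene (rows), with ligands at the top, receptor chains in the middle and antagonists, decoys and binding proteins at the bottom. Black dots mark adjusted p below 0.05, grey marks genes not tested in the 9-library fit, and the colour scale ends at 5, where fitted values of genes with a group at 0 reads depend on the prior count. There are 3 dots in the 3 columns that compare hematomas, and 28, 25 and 23 in the columns against preOP.

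Among ligands, Il6, Il33 and Il18 rose in all 3 hematoma groups. Of the 16 ligands tested, 5 rose and 6 fell in normal, and 5 rose and 3 fell in each of delayed and nonunion. Il6, the main cytokine of acute inflammation, had 0.0987, 0.0944 and 0 CPM in the preOP libraries, at most 2 reads each. In the hematomas it stood at 6.52, 5.39 and 3.65 CPM in normal, 21.3, 3.92 and 7.06 in delayed and 5.46, 0.154 and 12.7 in nonunion. Nonunion 2, with 1 read, could not be told apart from the femur pieces, as 3 reads equal 0.462 CPM there. Each of the other hematomas lay well above each femur piece. The log2 fold changes of Il6 were 6.13, 7.18 and 6.39 (adjusted p = 0.00437, 0.00334 and 0.00562).

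Il33 stood at 30.1, 21.0 and 20.0 CPM in preOP, below every hematoma. Its log2 fold changes were 1.81 (SE 0.34, adjusted p = 0.00189) in normal, 3.34 (SE 0.36, adjusted p = 0.000171) in delayed and 3.04 (SE 0.35, adjusted p = 0.000283) in nonunion. Il18 stood at 8.73, 9.11 and 5.73 CPM in preOP, against 54.6, 88.2 and 54.9 in normal, 55.8, 22.1 and 34.6 in delayed and 35.7, 15.9 and 43.6 in nonunion. Its log2 fold changes were 3.07, 2.25 and 2.02 (adjusted p = 0.000564, 0.00369 and 0.00638). The fibroblast markers summed to 1081 to 2269 CPM in preOP and 6551 or more in every hematoma, and 4 of the 8 (Pdgfra, Dcn, Fap and Col3a1) were higher in all 9 hematomas than in any femur piece. The macrophage and monocyte markers, all 13 found, summed to 2793 to 4841 CPM in preOP and 3027 to 10971 in hematomas, with overlap and with Lyz2 the largest term in all 12 libraries. Among them Cd68 (28.5 to 44.1 CPM in preOP, 125 to 406 in hematomas), Cd14, Csf1r, Mrc1 and Msr1 were higher in all 9 hematomas, no marker was lower in all 9, and the part of either cell type was not tested.

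Il11 rose in normal and delayed hematomas, and Il10 in delayed and nonunion. Il11 stood at 0.148, 0.142 and 0.247 CPM in preOP, 3 or 4 reads a library. All 9 hematomas were above that in CPM, but nonunion 2, at 0.308 CPM, held only 2 reads, and 3 reads equal 0.462 CPM there. The log2 fold changes of Il11 were 6.07 (SE 1.18, adjusted p = 0.00232) in normal and 3.66 (SE 1.09, adjusted p = 0.0279) in delayed. In nonunion the value was 1.34 (SE 1.11, adjusted p = 0.405). Il10, an anti-inflammatory cytokine, stood at 0.296, 0.236 and 0.185 CPM in preOP, 0.1003, 0.673 and 0.496 in normal, 4.26, 0.825 and 1.81 in delayed and 2.21, 2.00 and 0.703 in nonunion. Its log2 fold changes were 3.23 (SE 0.81, adjusted p = 0.0129) in delayed and 2.72 (SE 0.81, adjusted p = 0.0277) in nonunion, and 0.79 (SE 0.82, adjusted p = 0.456) in normal, where the groups overlapped. Il17b was at least 5.61-fold higher in normal and at least 4.11-fold higher in nonunion hematomas than in preOP, by the same limit of 3 reads per library (adjusted p = 0.0067 and 0.0128).

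Il12a, Il16 and Il7 fell in all 3 hematoma groups. Il12a encodes the p35 subunit of IL-12 and stood at 9.47, 11.04 and 9.06 CPM in preOP, against 1.05, 0.367 and 0.315 in normal, 0.499, 0.206 and 0.121 in delayed and 0, 0 and 0.124 in nonunion. Every hematoma lay well below every femur piece. The log2 fold changes were -4.07 in normal and -5.12 in delayed (adjusted p = 0.00218 and 0.00132). In nonunion, 3 reads against 573 in preOP gave a pooled ratio of 185-fold (95% exact binomial interval 63.1 to 901, counting error only; adjusted p = 0.000567). Il16, a chemoattractant that binds CD4, stood at 105, 101 and 84.0 CPM in preOP and at 13.7 to 50.0 in the hematomas, with log2 fold changes of -1.90, -1.72 and -2.21 (adjusted p = 0.00473, 0.0114 and 0.00371). Il7, a lymphocyte growth factor made by marrow stroma, stood at 6.17, 8.21 and 4.07 CPM in preOP and at 0.774 to 2.71 in the hematomas, with log2 fold changes of -1.82, -2.62 and -2.08 (adjusted p = 0.0121, 0.00342 and 0.0106). B cell markers were lower as well, at 225 to 371 CPM in preOP and 39.6 to 129 in hematomas, with 9 of 12 found and 6 of the 9 lower in all 9 hematomas than in any femur piece, and their part was not tested.

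A further set of ligands was lower than in femur by the test in normal hematomas and not in the others. Il15, which sustains natural killer and memory T cells, stood at 11.1, 8.68 and 8.69 CPM in preOP, 2.21, 3.73 and 2.75 in normal, 6.52, 8.56 and 7.58 in delayed and 2.97, 10.5 and 5.71 in nonunion, with a log2 fold change of -1.71 (SE 0.44, adjusted p = 0.00959) in normal and of -0.33 and -0.59 in delayed and nonunion. Il1a stood at 3.90, 3.59 and 4.13 CPM in preOP, with log2 fold changes of -3.77 (SE 1.22, adjusted p = 0.0286) in normal and -3.28 (SE 1.19, adjusted p = 0.0604) in nonunion. Il24, an IL-10 family cytokine, stood at 2.96, 2.60 and 1.05 CPM in preOP and 0.1003, 0.184 and 0.180 in normal, with log2 fold changes of -3.79 (SE 0.99, adjusted p = 0.0103) in normal and -2.15 (SE 0.88, adjusted p = 0.09) in delayed. Between delayed and normal these 3 genes differed by log2 fold changes of 1.37 (SE 0.48, adjusted p = 0.121), 3.57 (SE 1.37, adjusted p = 0.147) and 1.63 (SE 1.02, adjusted p = 0.343), and edgeR called none of them, while DESeq2 called Il15 and Il1a (adjusted p = 0.0335 and 0.0357). Il1b, Il23a, Il34 and Il36b, the remaining ligands tested, were not called by edgeR in any comparison of all libraries. DESeq2 called Il23a for delayed against normal (adjusted p = 0.00433).

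Among receptor chains, Il4r, Il13ra1, Il6st, Il17rc, Il20rb and Il1rl2 rose in all 3 hematoma groups. Of the 26 receptor chains tested, 10 rose and 5 fell in normal hematomas, 9 rose and 5 fell in delayed, and 7 rose and 6 fell in nonunion. Il4r stood at 47.1, 52.9 and 42.2 CPM in preOP, 128, 242 and 166 in normal, 347, 129 and 301 in delayed and 287, 99.4 and 198 in nonunion. Its log2 fold changes were 1.91, 2.45 and 2.04 (adjusted p = 0.00603, 0.00285 and 0.00674). Its partner chain Il13ra1 stood at 60.4, 47.5 and 32.1 CPM in preOP and at 80.3 to 243 in the hematomas, with log2 fold changes of 1.47, 2.02 and 1.44 (adjusted p = 0.00604, 0.00192 and 0.00997). In CPM both chains were lower in every femur piece than in any hematoma. For nonunion 2 this rests on the scaling. It held 645 reads of Il4r and 521 of Il13ra1, against 685 to 1122 and 520 to 1225 in preOP.

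Il6st, the signalling chain gp130 of the whole IL-6 family, stood at 139.6, 113 and 110.0 CPM in preOP, 254, 202 and 265 in normal, 202, 411 and 280.4 in delayed and 268, 604 and 330.3 in nonunion. It rose by log2 fold changes of 0.99, 1.30 and 1.73 (adjusted p = 0.039, 0.0176 and 0.0048). Il11ra1, the IL-11-binding chain, stood at 7.11, 8.21 and 12.5 CPM in preOP and rose in normal by a log2 fold change of 1.82 (SE 0.48, adjusted p = 0.0115) and in nonunion by 1.49 (SE 0.48, adjusted p = 0.0383), while delayed gave 0.48 (SE 0.47, adjusted p = 0.481). Il6r, the IL-6-binding chain, was not called against preOP: it stood at 93.3, 93.2 and 69.9 CPM in preOP and at 55.0 to 167 in the hematomas. Il10rb, a chain shared by the IL-10 and IL-22 receptors, rose in normal by a log2 fold change of 0.96 (SE 0.30, adjusted p = 0.0242) and in delayed by 1.18 (SE 0.30, adjusted p = 0.0143).

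The 2 chains of the IL-17A receptor moved apart. Il17ra stood at 516, 508 and 559 CPM in preOP, 129, 119 and 115 in normal, 337, 91.7 and 246 in delayed and 179.6, 111 and 152 in nonunion, and fell by log2 fold changes of -2.12, -1.23 and -1.84 (adjusted p = 0.00203, 0.0364 and 0.0062). Il17rc stood at 2.91, 2.93 and 3.39 CPM in preOP, 18.6, 31.6 and 16.4 in normal, 8.94, 11.1 and 19.5 in delayed and 11.9, 22.5 and 14.1 in nonunion, and rose by log2 fold changes of 2.85, 2.10 and 2.39 (adjusted p = 0.000457, 0.00304 and 0.00171). Neither chain's femur values overlapped those of any hematoma. The neutrophil markers, 12 of 13 found, summed to 10291 to 12915 CPM in preOP and 1522 to 10009, 104 to 1311 and 83.5 to 875 in normal, delayed and nonunion. The part of neutrophils in these differences was not tested.

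Other chains that rose in every hematoma group were Il20rb, shared by the receptors of IL-20 and IL-24, and Il1rl2. Il20rb stood at 1.09, 2.88 and 1.79 CPM in preOP and at 4.49 to 15.5 in the hematomas, with log2 fold changes of 2.13, 2.33 and 2.34 (adjusted p = 0.011, 0.0108 and 0.0108). Il1rl2 stood at 0.296, 0.330 and 0.247 CPM in preOP, and its log2 fold changes were 1.91, 4.19 and 2.64 (adjusted p = 0.0381, 0.00163 and 0.0137).

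Besides Il17ra, the chains Il2ra, Il2rb and Il9r fell in all 3 hematoma groups, and Il12rb2 and Il5ra in a pair of them. Il2ra, the high-affinity chain of the IL-2 receptor, stood at 5.58, 4.95 and 3.95 CPM in preOP and at 0.0414 to 1.08 in the hematomas, with log2 fold changes of -4.34, -3.53 and -3.79 (adjusted p = 0.00315, 0.01 and 0.00983). Il2rb, the chain shared by the IL-2 and IL-15 receptors, stood at 19.5, 18.5 and 17.01 CPM in preOP, 1.60, 0.857 and 1.53 in normal, 4.80, 1.08 and 1.77 in delayed and 1.50, 5.86 and 2.73 in nonunion, with log2 fold changes of -3.77, -2.84 and -2.48 (adjusted p = 0.00127, 0.00652 and 0.0122). Il2rg, the chain common to the receptors of IL-2, IL-4, IL-7, IL-9, IL-15 and IL-21, stood at 47.3, 38.5 and 25.8 CPM in preOP and 29.7 to 72.4 in the hematomas and was not called. The T and NK cell markers, 15 of 15 found, summed to 148 to 222 CPM in preOP and, in normal, delayed and nonunion hematomas, to 122 to 133, 176 to 348 and 223 to 265 CPM. Single markers differed in direction. Cd8a was higher in every delayed library (104 to 152 CPM) than in preOP (11.8 to 16.3), while Nkg7 (61.6 to 92.6 CPM in preOP, 0.766 to 50.3 in hematomas) and Klrd1 (6.29 to 8.78 and 0.150 to 2.95) were lower in all 9 hematomas. Of the 15 markers, 10 were lower in every normal library than in any femur piece, 2 in every delayed and 7 in every nonunion one, and Klrb1 was at 0 in all hematomas. The part of T and NK cells in the fall of Il2ra and Il2rb was not tested.

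Il9r, the IL-9 receptor chain, stood at 2.17, 2.64 and 3.64 CPM in preOP and at 0.0612 to 1.08 in the hematomas, with log2 fold changes of -3.77, -3.02 and -2.53 (adjusted p = 0.00398, 0.0132 and 0.0312). Il12rb2, a chain of the IL-12 receptor, stood at 6.76, 7.08 and 5.12 CPM in preOP, 0.501, 0.367 and 0.361 in normal, 0.729, 6.29 and 0.282 in delayed and 0.593, 1.08 and 0.248 in nonunion. It fell in normal and nonunion hematomas, with log2 fold changes of -3.93 (SE 1.01, adjusted p = 0.00986) and -3.40 (SE 1.00, adjusted p = 0.0264), and delayed 2, the muscle-rich library, was the only hematoma within the femur range. Il5ra, the IL-5 receptor chain of eosinophils and basophils, had 33 reads in preOP, 1 in delayed and 0 in nonunion, a pooled ratio of 40.2-fold for delayed (95% exact binomial interval 6.73 to 1635, counting error only; adjusted p = 0.0304) and at least 2.36-fold lower in nonunion (adjusted p = 0.0232). In the normal libraries Il5ra had 14, 0 and 6 reads and was not called. Mast cell, basophil and eosinophil markers, 13 of 15 found and none at 0 throughout a group, summed to 919 to 1313 CPM in preOP. In normal, delayed and nonunion hematomas they summed to 178 to 530.3, 24.3 to 119 and 34.4 to 136 CPM. Of the 13, 10 were lower in every normal library than in any femur piece, and 3 overlapped. Among those 3, Prg2 stood at 370, 125 and 102 CPM in normal, 172 to 220 in preOP and 2.80 or less in delayed and nonunion. Epx stood at 120, 31.6 and 34.9 CPM in normal, 77.1 to 92.5 in preOP and 1.57 or less in delayed and nonunion. What these marker cells contributed to Il5ra and Il9r was not tested.

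**Figure D3:**
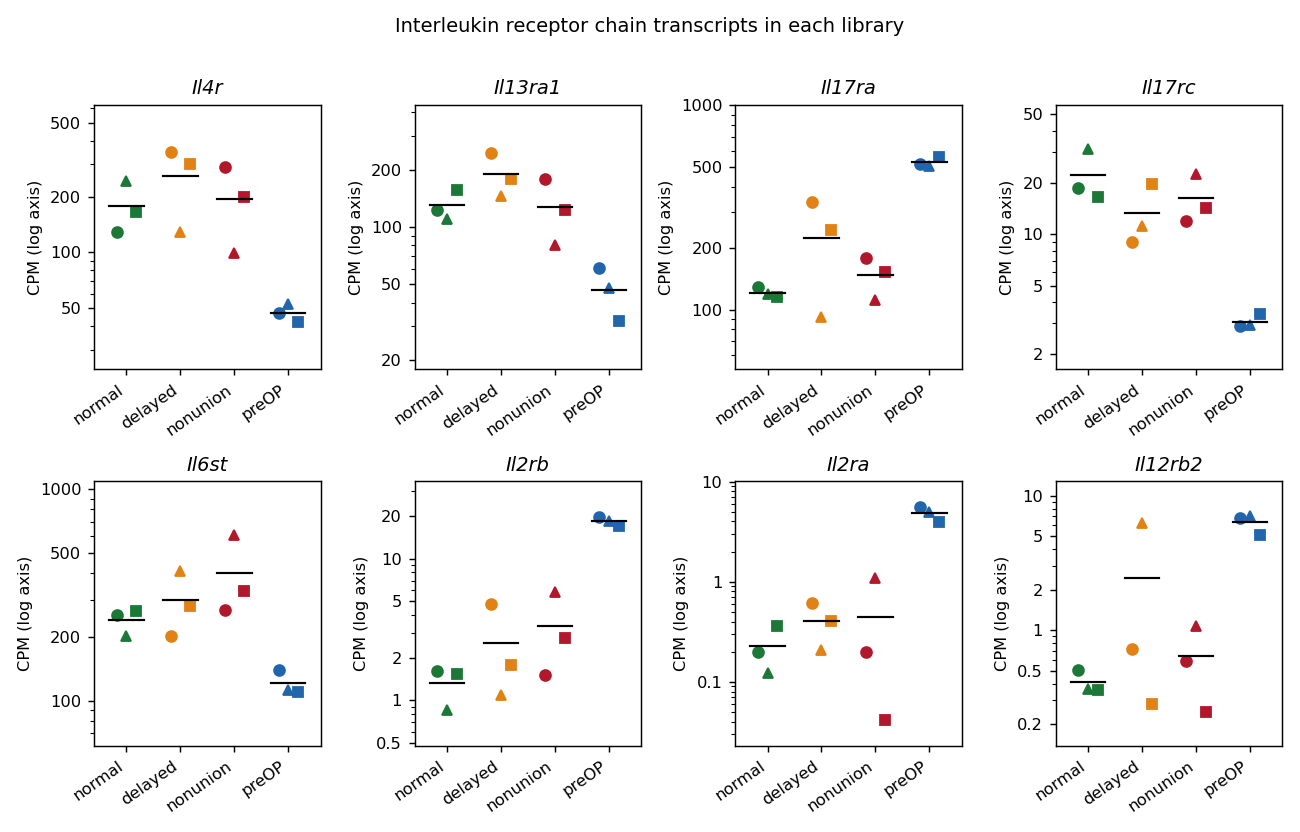
Receptor chain transcripts in each of the 12 libraries, in CPM on log axes, with circles, triangles and squares for replicates 1, 2 and 3 and black lines for group means. Il4r, Il13ra1, Il17rc and Il6st were lowest in the preOP libraries, while Il17ra, Il2rb and Il2ra were highest there, and Il12rb2 of delayed 2 reached 6.29 CPM, within the preOP range.

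Among antagonists and decoys, Il13ra2 fell in all 3 hematoma groups, Il18bp rose in delayed and nonunion, and Il1rn rose in delayed. Of 6 tested, 2 fell in normal hematomas, 2 rose and 1 fell in delayed, and 1 rose and 1 fell in nonunion. Il13ra2, a decoy that traps IL-13, stood at 22.7, 14.7 and 7.77 CPM in preOP, 2.16, 1.53 and 0.946 in normal, 0.576, 0.670 and 0.484 in delayed and 0.475, 2.31 and 0.786 in nonunion. It fell by log2 fold changes of -3.28, -4.70 and -3.77 (adjusted p = 0.00215, 0.000734 and 0.00205), while the signalling chain for the same ligand, Il13ra1, rose in the same groups.

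Il18bp, which binds and neutralises IL-18, stood at 7.75, 7.69 and 7.34 CPM in preOP, 11.9, 34.7 and 14.7 in normal, 46.7, 25.5 and 28.8 in delayed and 89.7, 8.32 and 54.9 in nonunion. Its log2 fold changes were 2.15 (SE 0.68, adjusted p = 0.0366) in delayed and 2.75 (SE 0.70, adjusted p = 0.0133) in nonunion, and 1.43 (SE 0.67, adjusted p = 0.107) in normal. Il1rn stood at 59.2, 45.5 and 41.5 CPM in preOP, 182, 182 and 129.7 in normal, 648, 210.2 and 236 in delayed and 552, 8.79 and 202 in nonunion, where nonunion 2 alone lay below the femur pieces. It was called in delayed, at a log2 fold change of 2.90 (SE 0.99, adjusted p = 0.0478), and stood at 1.76 (SE 0.95, adjusted p = 0.154) in normal and 2.38 (SE 0.97, adjusted p = 0.0889) in nonunion. Il36rn was lower in normal hematomas than in preOP, with a log2 fold change of -4.06 (SE 0.74, adjusted p = 0.00166), and was not called in delayed (-0.89) or nonunion (-0.46). Il1r2 and Il22ra2, a soluble IL-22-binding protein, were not called by edgeR in any comparison of all libraries. DESeq2 called Il22ra2 higher in delayed and in nonunion than in normal hematomas (adjusted p = 0.00471 and 0.0321), and edgeR without delayed 2 and nonunion 2 called it in delayed (adjusted p = 0.0118).

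Within each library, the antagonists were also set against their ligands per length. Il1rn over Il1b was 1.27 to 1.43 in the 3 preOP libraries and above that in every hematoma, from 1.75 in delayed 1 to 12.7 in delayed 2. Il18bp over Il18 was 0.153 to 0.280 in the 3 normal libraries and 0.366 (nonunion 2) to 1.72 (nonunion 1) in the other 9, without overlap. These ratios are descriptions of single libraries and carry no test.

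**Figure D4:**
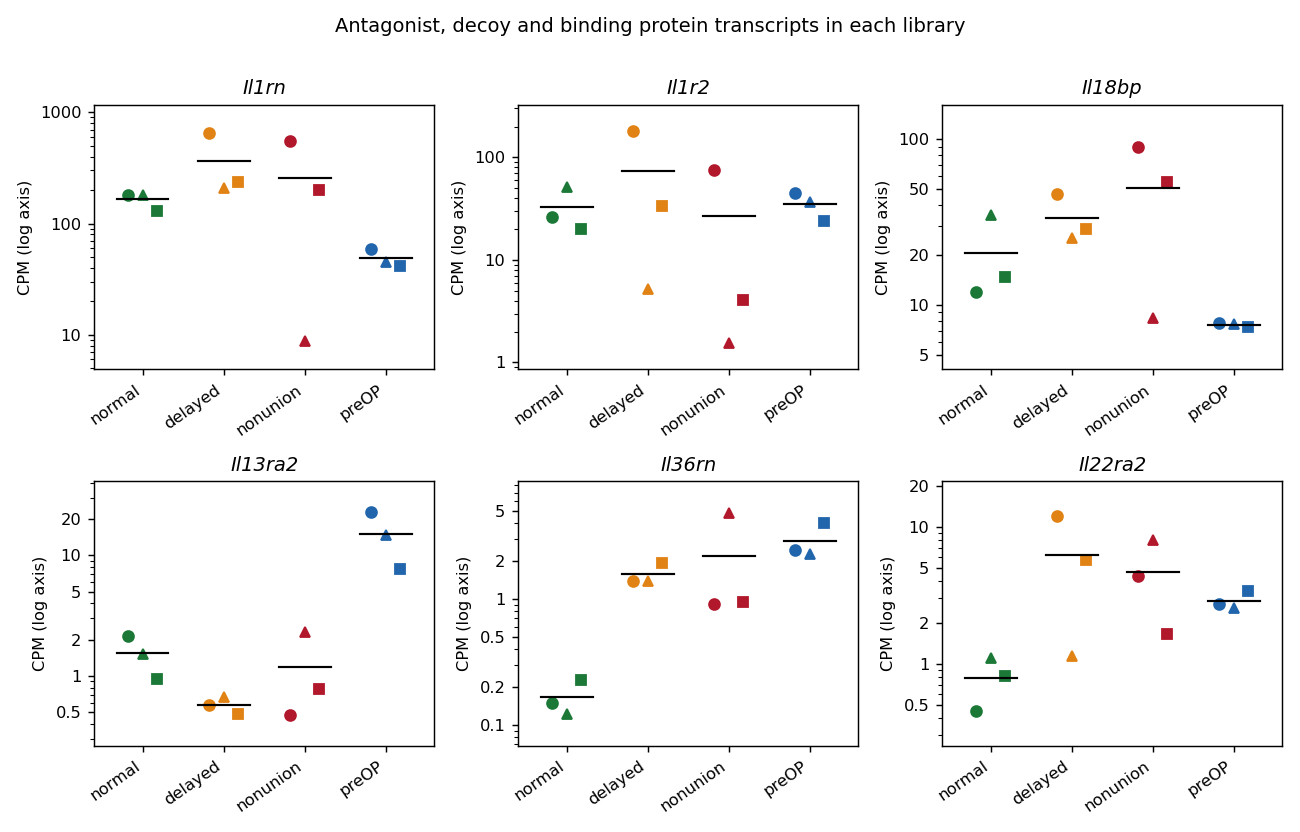
Antagonist, decoy and binding protein transcripts in each of the 12 libraries, in CPM on log axes, with circles, triangles and squares for replicates 1, 2 and 3 and black lines for group means. Il13ra2 was at 7.77 CPM or more in preOP and at 2.31 or less in the hematomas, Il36rn was lowest in the 3 normal libraries, and nonunion 2 was the lowest hematoma for Il1rn, Il1r2 and Il18bp.

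The IL-33 receptor chain Il1rl1, also known as ST2, is listed as 2 transcripts, and their balance differed between femur and hematoma. ST2 is known to be made in a membrane form that signals and a soluble form that traps IL-33, but the files do not say which transcript encodes which. The shorter transcript, of 2065 bases, made up 92.0% to 94.8% of the gene's TPM (transcript abundance scaled to a common total) in preOP, 5.76% to 6.47% in normal and 4.90% to 6.14% in delayed libraries. In nonunion it made up 8.81%, 51.8% and 5.34%, where the 51.8% belongs to nonunion 2 and rests on 14 and 16 reads of the 2 transcripts. No hematoma reached the share of any femur piece.

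The longer transcript, of 2586 bases, was the one that rose. It stood at 1.43, 1.84 and 0.309 CPM in preOP, 122, 71.2 and 131 in normal, 103, 245 and 282 in delayed and 106, 2.46 and 149.6 in nonunion. In a fit over all 13487 transcripts tested, in which 40.8%, 26.4% and 26.6% were called in normal, delayed and nonunion, its log2 fold changes were 6.47 (SE 1.24, adjusted p = 0.00247), 7.43 (SE 1.29, adjusted p = 0.00227) and 6.15 (SE 1.22, adjusted p = 0.00476). The shorter transcript stood at 20.5, 16.7 and 4.27 CPM in preOP and at 2.15 to 12.5 in the hematomas, with log2 fold changes of -1.31 (SE 0.64, adjusted p = 0.122), -0.54 (SE 0.63, adjusted p = 0.571) and -1.30 (SE 0.64, adjusted p = 0.162), and was not called. As a gene, Il1rl1 rose in normal by a log2 fold change of 2.92 (SE 0.96, adjusted p = 0.0304) and in delayed by 3.87 (SE 1.00, adjusted p = 0.015), and stood at 2.61 (SE 0.95, adjusted p = 0.0614) in nonunion. Neither transcript was called between hematoma groups, where 6.1% of 13072 transcripts were called for delayed against normal, 2.07% for nonunion against normal and 0% for nonunion against delayed.

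Il1rap, the accessory chain that Il1rl1 and the IL-1 receptor share, is the only other gene of the set with 2 transcripts, and it was picked for that after its values were seen. Its shorter transcript, of 1862 bases, made up 52.1% to 82.9% of the gene's TPM over all 12 libraries, with the groups overlapping. As a gene it rose in normal by a log2 fold change of 1.60 (SE 0.58, adjusted p = 0.0444) and in delayed by 1.90 (SE 0.58, adjusted p = 0.0315), with 1.02 (SE 0.57, adjusted p = 0.213) in nonunion.

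Some of these calls rest on few libraries. In at least 1 of the other analyses, each leaving out a library or changing 1 step, 7 of the 28 calls in normal hematomas ended (Il10rb, Il1a, Il1rap, Il1rl1, Il1rl2, Il6st and Il7). In delayed 11 of 25 ended (Il10, Il10rb, Il11, Il16, Il17ra, Il18bp, Il1rap, Il1rl1, Il1rn, Il5ra and Il6st), and in nonunion 9 of 23 (Il10, Il11ra1, Il12rb2, Il18bp, Il1rl2, Il2rb, Il5ra, Il7 and Il9r). Without preOP 3 the count in delayed was 15. No call changed direction in any of them. The longer Il1rl1 transcript, for which DESeq2, limma-voom, length offsets and 2-group fits were not run, remained called in the settings that were: other size factors, no filter, the replicate block and leaving out libraries.

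The signalling proteins below these receptors were read from lists of pathway genes. Of 28 listed genes of IL-1 and Toll family signalling, 22 were tested, and 2 rose and 5 fell in normal hematomas against preOP, 1 rose and 2 fell in delayed, and 2 rose and 2 fell in nonunion. These counts stand against 42.6%, 28.2% and 28.4% of all genes called in the same 3 comparisons, and 7, 3 and 4 of 22 are no more than that. Nfkb2, an NF-kappaB subunit, rose in each, by log2 fold changes of 1.14, 1.42 and 1.33 (adjusted p = 0.0051, 0.00253 and 0.00381). Chuk, a kinase of the complex that releases NF-kappaB, fell by log2 fold changes of -1.20, -0.90 and -0.96 (adjusted p = 0.00718, 0.0372 and 0.0291). Irak3, which dampens IL-1 and Toll signalling, was the only one of the 22 called between hematomas. It stood at 23.4, 15.3 and 22.2 CPM in normal, 74.1, 59.5 and 76.7 in delayed, 35.8, 92.5 and 48.7 in nonunion and 61.4, 51.3 and 47.3 in preOP, and was higher in delayed than in normal, with a log2 fold change of 1.76 (SE 0.38, adjusted p = 0.03).

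Of 25 listed JAK-STAT genes, 24 were tested, and 4 rose and 7 fell in normal, 4 rose and 1 fell in delayed, and 3 rose and 5 fell in nonunion hematomas against preOP. With 42.6%, 28.2% and 28.4% of all genes called, 11, 5 and 8 of 24 lie near or below those shares. Socs3, the feedback inhibitor of gp130 signalling, stood at 3.80, 4.77 and 3.58 CPM in preOP and at 6.78 to 53.0 in the hematomas, and rose by log2 fold changes of 2.27, 2.67 and 2.69 (adjusted p = 0.0181, 0.0132 and 0.0127). Stat3, the main STAT below gp130, rose by log2 fold changes of 0.61, 0.98 and 0.91 (adjusted p = 0.0375, 0.00638 and 0.00955). Stat5a, which acts below the IL-2 receptor, fell by log2 fold changes of -1.10, -1.24 and -0.95 (adjusted p = 0.00715, 0.00601 and 0.0208). Stat4, the STAT of IL-12, fell in normal and nonunion, with log2 fold changes of -3.49 (SE 0.98, adjusted p = 0.0146) and -3.48 (SE 1.00, adjusted p = 0.0238).

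Socs1, another feedback inhibitor, set the normal hematomas apart from all other libraries. It stood at 13.3, 9.06 and 9.15 CPM in normal, against 0.959, 0.103 and 0.968 in delayed, 1.27, 1.54 and 0.827 in nonunion and 0.938, 1.27 and 1.66 in preOP. It was lower in delayed than in normal, with a log2 fold change of -3.93 (SE 0.74, adjusted p = 0.0207), and was the only one of the 24 called between hematomas. Whether the other form of the normal libraries' files bears on this value was not tested.

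Of 21 listed interleukin family genes with other symbols, 16 were tested, and 5 rose in normal and 4 in each of delayed and nonunion hematomas, with none falling. Over all genes, 20.5%, 12.6% and 13.5% were called higher in these comparisons, and 42.6%, 28.2% and 28.4% in either direction. The shares of this list lie above the former and below the latter, and that difference was not tested. Osmr, the oncostatin M receptor chain that pairs with Il6st, stood at 7.85, 5.66 and 4.99 CPM in preOP and at 7.41 to 137 in the hematomas, with log2 fold changes of 2.04, 3.82 and 2.84 (adjusted p = 0.0136, 0.00118 and 0.00464), and normal 2 lay within the femur range. Csf1r, the receptor that Il34 and Csf1 bind, rose by log2 fold changes of 1.77, 2.20 and 1.98 (adjusted p = 0.00381, 0.00193 and 0.00342).

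The classical T helper cell cytokines were at or near the limit of detection everywhere. Il5, Il36g and Il1rapl2 had no read in any library, which allows up to 0.462 CPM in nonunion 2 and 0.115 to 0.185 CPM elsewhere. Il2, Il9, Il13 and Il22 had 1 read each over the 12 libraries, Il17a had 4 and Il21 had 7, of which 6 lay in delayed 2. Il17f had 25 reads, and none of those 25 lay in preOP. Il4, the ligand of the Il4r chain described above, had 7 reads in all, each in a preOP library. In total 23 of the 71 genes had too few reads to be tested in either fit, and a further 11 genes of the annotation with such symbols, Il1r1, Il15ra and Il18rap among them, were not analysed here.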

How the data were processed

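RNA from 9 fracture hematomas and 3 femur pieces of male rats was sequenced as TruSeq libraries, per the labels' protocols. Per the submitters' processing notes, the authors used bcl2fastq 1.8.4, FastQC, Trimmomatic and Salmon with genome build rn6, in an order that is not given in the sources used here. The authors deposited, for each library, estimated counts (expected counts), TPM values and effective lengths of 18321 RefSeq transcripts. The authors' TPM values were used for the shares of transcripts, and for choosing genes by level.

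Of the 18321 transcripts, 17367 were matched to a symbol through a RefSeq gene table of assembly GRCr8, used for names, and 954 were kept under their own identifiers. Estimated counts were rounded and summed per gene. With edgeR 4.0.16 in R 4.3.3 (TMM scaling, filterByExpr, quasi-likelihood F-test, Benjamini-Hochberg over all genes), the 9 hematoma libraries were fitted together (12474 genes, 6 residual degrees of freedom) and all 12 libraries for comparisons with preOP (12846 genes, 8 residual degrees of freedom). CPM values use the TMM factors of the 12-library fit, and RPKM values divide them by the deposited effective length. Standard errors are the log2 fold change divided by the root of F. Intervals and limits from a count of 0 (3 reads) cover counting error only.

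DESeq2 1.42.0, limma-voom (limma 3.58.1), other scaling, no filter, effective lengths as offsets, 2-group fits, the replicate number as a block and leaving out each library were tried as alternatives, and leaving out delayed 2 with nonunion 2 and testing transcripts apart were added after seeing the data. The tests were tried on simulated data. The values of 1 gene counted in the pathway lists are not reported here. The members, their roles, the pathway lists and the marker lists were chosen with earlier results of these data known. Genes were named if they were called in a comparison (the 30 with the lowest adjusted p) or were among the 3 highest of their role by TPM; the others named, such as Il1rap, Il10ra, Il17re, Il22ra2, Il23a, Il34, Il2rg and Il6r, were chosen after their values were seen.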

Additional observations from a re-analysis of the deposited data

How the results depend on the processing

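No log2 fold change of a called interleukin gene changed sign in any alternative that tested it. Against preOP, 21 of 28 calls in normal, 14 of 25 in delayed and 14 of 23 in nonunion hematomas held in every alternative that tested the gene. For delayed against normal 0 of 3 did. Among the held calls, Il17b in normal and nonunion and Il6 in nonunion were tested in 13 alternatives, and the others in 14. For delayed against normal, DESeq2 called 9 genes and the fit without delayed 2 and nonunion 2 called 14, and leaving out single libraries gave 0 to 5. Of all genes, the first 2 called 1990 of 15173 and 2076 of 12627, against 889 of 12474 in the main fit. Leaving out single libraries gave 176 to 726 of all genes. Over all its alternatives the adjusted p of Il33 ranged from 0.0015 to 0.128, that of Il36rn from 0.00304 to 0.139 and that of Il17b from 0.000434 to 0.086. For nonunion against normal, DESeq2 called 6 and the replicate block 1, and of all genes they called 1272 of 15173 and 148 of 12474. For nonunion against delayed, DESeq2 called 2, and 181 of all 15173 genes. Leaving out single libraries gave 0 in both comparisons. Against preOP, leaving out single libraries gave 21 to 28 calls in normal, 15 to 31 in delayed (15 without preOP 3) and 17 to 28 in nonunion. Without delayed 2 and nonunion 2 the counts were 36, 36 and 33 of 50. That fit called 7560, 5414 and 5425 of all 13012 genes, against 5466, 3622 and 3648 of 12846 in the main fit. Leaving a library out leaves fewer samples; otherwise the cause of these moves was not tested. The libraries share only a replicate number: 4 of 18 same-numbered pairs correlated above 0.1 (r = -0.182 to 0.187), 3 of 12 libraries correlated best with their own number, and with the replicate block 26 of 28, 22 of 25, 22 of 23 and 0 of 3 calls were kept, in the order above; its 2 calls for delayed against normal were Il10ra and Il11ra1, and its 1 call for nonunion against normal was Il11. DESeq2 size factors moved the median of all genes by over 0.1 only in delayed against preOP (from -0.03 to 0.09), where 24 genes were called and the call of Il17ra ended. The limit for low genes in CPM was highest in nonunion 2, where 3 reads equal 0.462 CPM. That limit follows the scaling and not the depth, as this library held the most estimated reads, 24325162.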
